A study of Homo sapiens with 8 samples.

Results

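GATA2 regions that were called in both replicates of one treatment and in neither replicate of the other were taken from ChIP-seq peak lists of VCaP cells grown with and without the BET inhibitor JQ1. Overlapping peaks of the 4 GATA2 lists were chained into 36122 merged regions, and 360 of these were separated by treatment in this way. The larger group, 224 regions or 0.620% of all regions, was held by both untreated lists and by neither JQ1 list, and is called untreated-separated. The smaller group, 136 regions or 0.377%, was held by both JQ1 lists and by neither untreated list, and is called JQ1-separated. The members were chosen by the presence of a peak in the 4 lists, so their numbers and their strength in the lists that hold them are descriptions and carry no test.

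GATA2 is a zinc-finger transcription factor that binds DNA at the core letters GATA. In prostate cells it is known to work with the pioneer factor FOXA1 at enhancers that respond to androgen. JQ1 occupies the acetyl-lysine pockets of the BET proteins, which hold the transcription elongation machinery at acetylated enhancers and promoters. VCaP is an established line from a castrate-resistant prostate cancer.

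The series holds 8 samples of VCaP, namely 4 GATA2 precipitates and 4 inputs, in duplicate for each treatment. All cells spent 72 h in medium without steroids. Over the last 24 h before harvest the treated cells received 1 µM JQ1. The control cells, labelled as not treated, received the vehicle DMSO according to the protocol and are called untreated here. All groups share this single unmodified line, and the labels do not say whether the duplicates came from separate cultures. After removal of rows outside chromosomes 1 to 22, X and Y, the lists held 6902 and 27373 peaks for untreated replicates 1 and 2, and 4974 and 32404 for JQ1 replicates 1 and 2. The replicate 2 lists were thus several times longer in both treatments, and a region had to be called in the shorter replicate 1 list of its own treatment to be counted as separated.

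Most separated regions lay far from the start sites of genes, at a median of 39.0 kb in the untreated and 46.6 kb in the JQ1 direction. Over all merged regions the median was 44.2 kb, so this distance was not particular to the separated regions. Sequence was at hand for RefSeq promoter windows (GRCh38.p14, the build of the files), which run from 250 bases before a gene's start site to 50 after it, on all chromosomes except 8. Of the untreated-separated regions on these chromosomes, 3 of 208 (1.44%) overlapped such a window, and of the JQ1-separated regions 0 of 130, which allows a share of up to 2.31%. Over all merged regions the share was 0.782%, so the number in either group was too small to set apart from it. The 3 windows are printed 5′ to 3′ on the strand of the gene, because they show what lay under the GATA2 summit where a separated region met a promoter. Capitals mark matches to a GATA motif, which is AGATAA on either strand, with T also allowed as its first base and G as its last.
SPINT3, minus strand, chr20:45515623-45515872: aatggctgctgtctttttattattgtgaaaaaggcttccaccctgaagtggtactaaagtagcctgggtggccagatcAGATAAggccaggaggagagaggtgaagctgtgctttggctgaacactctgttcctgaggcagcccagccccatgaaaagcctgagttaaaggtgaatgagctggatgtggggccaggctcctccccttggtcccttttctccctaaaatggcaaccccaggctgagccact
RGS5-AS1, plus strand, chr1:163161425-163161724: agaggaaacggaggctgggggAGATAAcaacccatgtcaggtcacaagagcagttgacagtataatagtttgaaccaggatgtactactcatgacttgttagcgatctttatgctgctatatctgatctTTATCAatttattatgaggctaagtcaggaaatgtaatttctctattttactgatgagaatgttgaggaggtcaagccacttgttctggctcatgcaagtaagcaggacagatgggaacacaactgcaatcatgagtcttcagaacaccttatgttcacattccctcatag
LOC107984627, plus strand, chr13:106753213-106753512: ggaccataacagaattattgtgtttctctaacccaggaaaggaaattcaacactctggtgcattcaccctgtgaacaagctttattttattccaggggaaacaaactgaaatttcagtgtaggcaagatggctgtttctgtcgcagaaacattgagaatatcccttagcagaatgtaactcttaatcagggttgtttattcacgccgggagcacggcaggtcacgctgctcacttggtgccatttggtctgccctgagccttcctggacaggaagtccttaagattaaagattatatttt

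SPINT3 encodes a Kunitz-type protease inhibitor, and only the 250 bases before its start site are shown. Its window held 1 GATA match, which began at base 79 of the window, and the GATA2 summit lay 5 bp from the middle of that match and 175 bp before the start site. Reads over the summit numbered 18 in untreated replicate 1 and 43 in replicate 2. RGS5-AS1, an RNA antisense to the G-protein regulator RGS5, had 2 GATA matches, of which the nearer was 7 bp from the summit. Its summit had 28 and 25 reads. The window of LOC107984627, with 26 and 46 reads, held no match, and its summit lay at base 292, past the start site. A GATA match was present in 24.97% of 35116 RefSeq promoter windows of full length, so that such a match is common in windows of this size. No genome sequence was used here, so the motif content of the other separated regions was not analysed.

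The separated regions had fewer reads than the regions held by all 4 lists. Peak height is given here as the number of reads over the summit, which could be recovered from the deposited fold enrichment and p-value of 99.997% or more of the peaks in every list. Untreated-separated regions had 9 to 52 reads in untreated replicate 1, with a median of 18, and 14 to 90 in replicate 2, with a median of 33. JQ1-separated regions had 7 to 65 reads in JQ1 replicate 1, with a median of 15, and 10 to 79 in replicate 2, with a median of 25. For comparison, the 3236 regions held by all 4 lists had median counts of 29 and 106 reads without JQ1, and of 23 and 69 with it. The gap to these regions was thus wider in replicate 2 than in replicate 1 for both directions. Over all peaks of a list the median was 22 and 37 reads in untreated replicates 1 and 2, and 20 and 24 in JQ1 replicates 1 and 2. The medians of the separated regions were below these in 3 lists, and in JQ1 replicate 2 the separated regions sat near the middle of the list. The authors' median fold enrichment of the untreated-separated regions was 5.48 and 6.59 in replicates 1 and 2. That of the JQ1-separated regions was 5.17 and 6.25.

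**Figure D1:**
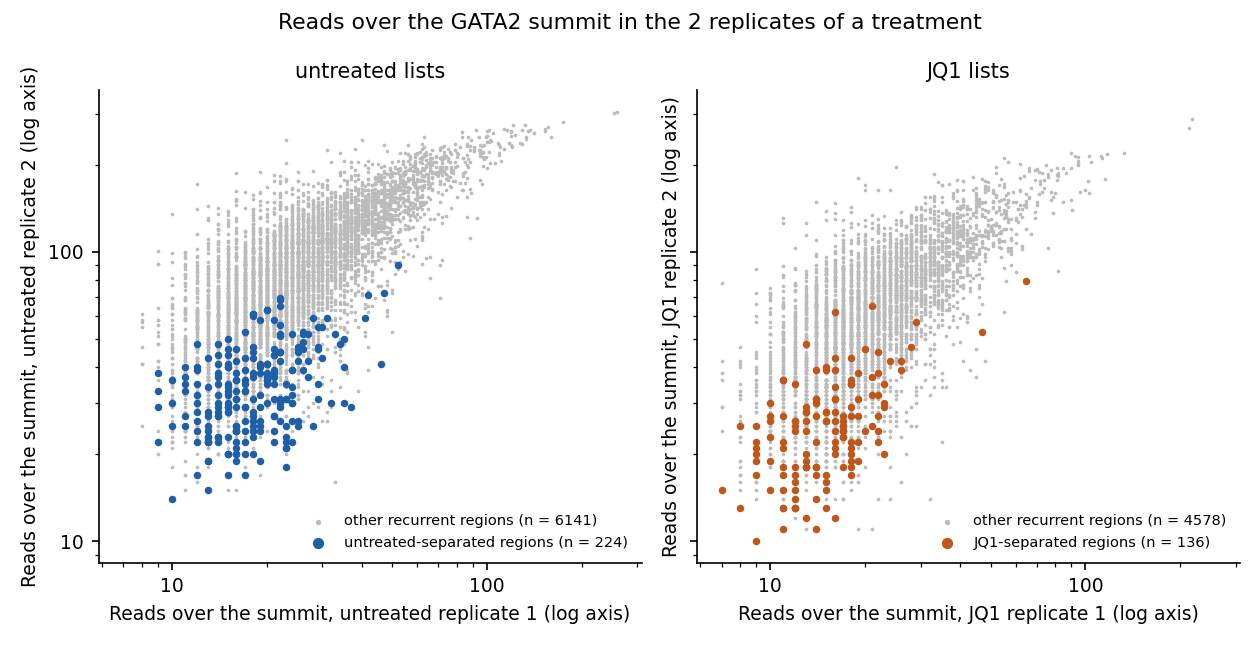
Reads over the GATA2 summit in replicate 1 (x axis) and replicate 2 (y axis) of the untreated lists (left) and the JQ1 lists (right), both axes logarithmic. Each point is 1 region called in both replicates. The coloured points are the 224 untreated-separated and 136 JQ1-separated regions, and grey points are the other recurrent regions, which reach 258 reads in untreated replicate 1.

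Seen from the regions called in both replicates of a treatment, complete separation was uncommon. Of 6365 regions recurrent in untreated cells, 3236 were in both JQ1 lists, 2890 in JQ1 replicate 2 only, 15 in JQ1 replicate 1 only and 224 in neither. The separated share was 3.52% (95% Wilson interval 3.09 to 4.0; the intervals given here cover counting error only). Of 4714 regions recurrent with JQ1, 3236 were in both untreated lists, 1329 in untreated replicate 2 only, 13 in untreated replicate 1 only and 136 in neither, a separated share of 2.89% (2.44 to 3.40). In both directions the long replicate 2 list of the other treatment therefore held nearly all of the recurrent regions. With 2 lists in each treatment an exact permutation test cannot reach a p of 0.05, so a difference in the number of regions cannot be called against the spread between replicates.

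Separation was most frequent among the weakest recurrent regions of replicate 2. Among untreated recurrent regions with 20 or fewer reads in untreated replicate 2, 41.5% (17 of 41) were separated. The share was 34.0% (80 of 235) at 21 to 30 reads, 13.4% (63 of 471) at 31 to 40, 4.57% (54 of 1181) at 41 to 60 and 0.225% (10 of 4437) above 60. In JQ1 replicate 2 the corresponding shares of JQ1 recurrent regions were 25.8% (46 of 178), 13.6% (54 of 396), 3.99% (23 of 577), 0.820% (10 of 1220) and 0.128% (3 of 2342). The share fell from class to class in both directions. The 2 directions are not compared within a class, because the same number of reads marks a relatively weaker site in untreated replicate 2 than in JQ1 replicate 2. By replicate 1 reads the gradient was shallower, from 5.73% at 20 or fewer reads to 0 of 284 above 60 in untreated cells. With JQ1 it ran from 4.73% to 0 of 496 at 31 to 40 reads, and 1 region was separated in each of the 2 highest classes.

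**Figure D2:**
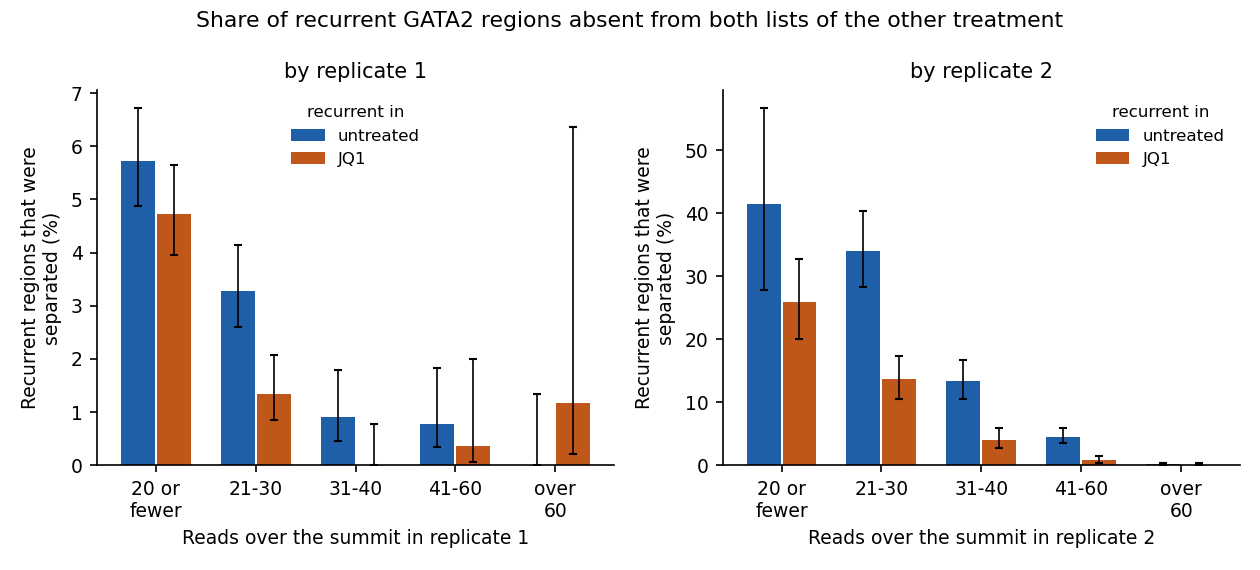
Share of recurrent regions (y axis, percent) that were absent from both lists of the other treatment, in 5 classes of reads over the summit in replicate 1 (left) and replicate 2 (right) of their own treatment. Bars are untreated (blue) and JQ1 (orange) recurrent regions with 95% Wilson intervals; the replicate 2 bars fall from 41.5% and 25.8% to 0.225% and 0.128%. The y axes of the panels differ.

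A peak list records a site only above the caller's limit, so absence from a list does not mean that no GATA2 was bound there. Reads below that limit in the other treatment are not in the lists. The limit itself was low, since the weakest summits called had 8 and 11 reads without JQ1, and 7 and 8 with it. Over the 3236 regions of all 4 lists, reads with JQ1 were a median of 0.773 times those without it in replicate 1, and 0.648 times in replicate 2. The second ratio and every read count of untreated replicate 2 rest on a scaling that was inferred from the values of that list. Scaled by these ratios, the untreated-separated regions would have had a median of 13.9 and 21.4 reads in JQ1 replicates 1 and 2, against a median of 10 needed for a call in either list. At that ratio 191 of the 224 would have reached the limit in both JQ1 lists. All 136 JQ1-separated regions would have reached it in both untreated lists, with medians of 19.4 and 38.6 reads against 10 and 15 needed. The margin was narrower in the untreated direction, where 17 and 102 of the 224 regions reached 2 times the limit in JQ1 replicates 1 and 2. In the JQ1 direction 47 and 95 of the 136 did so in the untreated lists. The members' own reads took part in choosing them, so these counts describe the size of the gap and support no difference.

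The counts changed more with the choice of lists than with the choice of overlap rule. When every list was reduced to its strongest peaks, as many as the shortest list holds, 351 regions were untreated-separated and 327 JQ1-separated. They held 0 of the 224 and 3 of the 136 regions described here. The shortened lists kept 4974 peaks each, out of 27373 in untreated replicate 2. No untreated-separated region ranked above the top 19.4% of that list, which is beyond the cut. The 0 thus followed from these ranks and is no separate result. In JQ1 replicate 2 the first quartile of the JQ1-separated regions was at the top 35.3% of 32404 peaks, so most of them were also cut. Peaks with a q-value no higher than 1e-05 gave 198 untreated-separated regions, of which 146 were among the 224. They gave 88 JQ1-separated regions, of which 61 were among the 136.

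The leading untreated-separated region, by its poorer rank among the 2 untreated lists, lay inside MLLT3 (chr9:20553621-20553864). MLLT3, also called AF9, reads acylated histones and belongs to the super elongation complex. Its summit had 42 reads in untreated replicate 1 over a local background of 3.88 and 71 in replicate 2, with fold enrichments of 8.82 and 12.8, and the summits of the replicates were 1 bp apart. The nearest JQ1 peak was 1.54 kb away. Further regions of the first 15 follow with the known role of the nearest gene. The region inside CHST8 (chr19:33700235-33700448), a sulfotransferase acting on glycoprotein hormones, had 22 and 52 reads. The region nearest to CLDN16 (chr3:190272750-190273006), a tight junction claudin, had 41 and 59 reads and lay 17.5 kb from its span and 32.9 kb from that of CLDN1, another claudin. The region in FHIT (chr3:60325835-60326084), a hydrolase gene at a common fragile site, had 25 and 45 reads. The region nearest to TNS3, a focal adhesion tensin, had 31 and 59 reads but lay 341 kb from that gene and only 480 bp from a JQ1 peak.

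The remaining regions of the first 15 also covered a mixed set of genes. Inside genes were the regions of AKAP19 with 30 and 55 reads, MIPOL1, a neighbour of FOXA1, with 27 and 52, and EPC1, a subunit of the NuA4 acetyltransferase, with 21 and 35. MYO16, an unconventional myosin, held the region with the most reads of the group in both lists, 52 and 90, over the high local background of 12.4 and 13 reads. Its fold enrichment was accordingly low, at 3.95 and 4.48. Between genes were the regions nearest to NUF2, a kinetochore protein (29 and 55 reads, 452 kb away), and CPEB2, which binds cytoplasmic polyadenylation elements (29 and 47 reads, 124 kb away). Closer to their genes were those of LOC105370706 (21 and 44 reads), the riboflavin transporter SLC52A3 (21 and 44 reads, 5.99 kb away), DBNDD2 (22 and 51 reads, 519 bp away) and the glycerate kinase GLYCTK (20 and 63 reads, 2.39 kb away). All 15 regions had more reads in replicate 2 than in replicate 1.

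The first 15 JQ1-separated regions lay in or nearest to genes of varied function. HS3ST5 (chr6:114131947-114132455), which adds sulfate to heparan sulfate, came first with 28 reads in JQ1 replicate 1 and 47 in replicate 2, and with fold enrichments of 11.0 and 15.8. ST6GALNAC3 (chr1:76579667-76580039), a sialyltransferase, came second with 21 and 65 reads, and its fold enrichment of 19.9 in replicate 2 was the highest of the group. Both regions were inside the genes, 9.44 and 6.38 kb from the nearest untreated peak. EPHA5, an ephrin receptor kinase, held a region with 29 and 57 reads (chr4:65557400-65557646). CTNND2, encoding delta-catenin, held one with 24 and 42 reads, DSCAM, a neuronal adhesion molecule, one with 22 and 38, and the Rac-regulating chimaerin CHN1 one with 23 and 29. The region nearest to the glutamate receptor gene GRIN3A had 18 and 35 reads and was 164 kb away.

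TAF3, a subunit of the general transcription factor TFIID, held a JQ1-separated region with 16 and 28 reads (chr10:7940391-7940670). It lay 104.8 kb before the start site of GATA3, another member of the GATA family, and within 100 kb of GATA3 no separated region was found. PPARGC1A, a coactivator of energy metabolism, held one with 17 and 24 reads, the adaptor STAP1 one with 23 and 35, and the bone matrix protein gene IBSP one with 21 and 32. The remaining regions of the first 15 lay outside genes. They were nearest to ASCL4, a basic helix-loop-helix factor (26 and 39 reads), CCDC160 (17 and 26), BCAS1 (21 and 37) and MBL2, a lectin gene 448 kb away (18 and 22).

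Some regions had many reads over a high local background. The JQ1-separated region nearest to EDA2R, on chromosome X, had 47 and 53 reads over a local background of 17.6 and 26.8, and its fold enrichment was 2.58 and 1.94. Both folds were lower than those of any of the first 15 regions of its group. In the untreated direction the highest background of replicate 1, 17.5, was at CDKAL1, with 47 and 72 reads.

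A few genes carried more than 1 separated region. ERN1, which encodes the stress sensor IRE1 of the endoplasmic reticulum, held 2 untreated-separated regions 30.9 kb apart, with 14 and 28 reads in the first and 20 and 36 in the second. Its neighbourhood within 100 kb also had 1 region held by all 4 lists. DUSP6, a phosphatase that switches off ERK, had an untreated-separated region on each side of the gene, 64.0 kb apart. That before the gene on the chromosome had 13 and 15 reads, and that beyond it had 24 and 39 and lay 5.46 kb from a region held by all 4 lists. FHIT, MACROD2 and AGBL4 each held 2 untreated-separated regions, over spans of 1504, 2058 and 1501 kb. Regions 92.3 kb apart near LRIG3 were also both untreated-separated. In none of the 8 genes with more than 1 member inside the span were 2 members both JQ1-separated. By nearest gene, however, the JQ1-separated regions at ranks 78 and 83 both belonged to GRIK2.

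Both directions could meet in one locus. In IKZF2, which encodes the zinc-finger factor Helios, an untreated-separated region (15 and 28 reads) and a JQ1-separated region (12 and 14 reads) lay 36.0 kb apart, with a region held by all 4 lists between them. TTC7B, TRPM3 and IMMP2L also held 1 region of each direction, 134, 412 and 424 kb apart. The second pair within 100 kb, 32.0 kb apart, lay 793 and 825 kb from the nearest gene, CENPC. The untreated-separated region of that pair was the last of the 224 by rank, with 16 and 33 reads and a −log10 q of 1.38 in replicate 1.

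**Figure D3:**
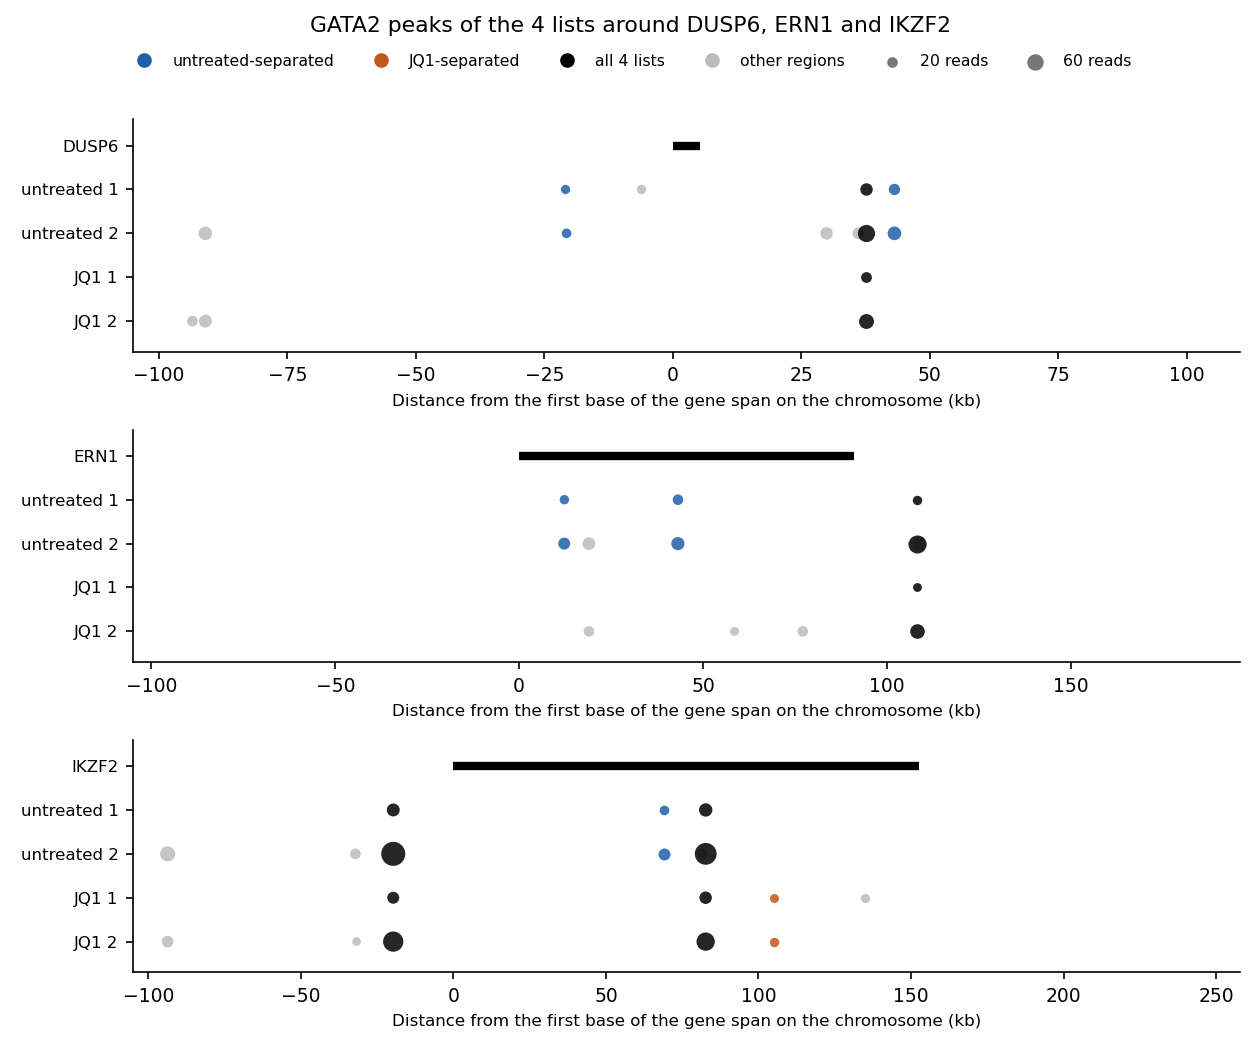
Peaks of the 4 lists within 100 kb of DUSP6, ERN1 and IKZF2, by distance from the first base of the gene span (x axis, kb; black bars are the spans). Each row is 1 list, dot area follows reads over the summit, and colour marks untreated-separated (blue), JQ1-separated (orange), all-list (black) and other (grey) regions; DUSP6 and ERN1 each have 2 untreated-separated regions, and IKZF2 has 1 region of each direction.

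Some of the separated regions had a peak of the other treatment near by, and no such share was counted over other regions for comparison. A JQ1 peak lay within 10 kb of 69 of the 224 untreated-separated regions (30.8%, 25.1 to 37.1), and an untreated peak within 10 kb of 50 of the 136 JQ1-separated ones (36.8%, 29.1 to 45.1). Within 500 bp the numbers were 10 and 5. The closest were the regions of SEMA6A, 114 bp from a JQ1 peak with 14 and 48 reads, and of HSF2, 136 bp from an untreated peak with 12 and 24 reads. These were named after their values were seen. For such regions a list of the other treatment also had a GATA2 peak in the short stretch, without overlap. The other list of that treatment could lack it. The SEMA6A peak was of JQ1 replicate 2, and the nearest peak of JQ1 replicate 1 was 53232 bp away. The median distance to the other treatment's nearest peak was 21.4 kb for the untreated-separated and 19.1 kb for the JQ1-separated regions.

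Among the separated regions, the summits of the 2 replicates were closer together in the untreated direction. The median distance between the 2 summits of a region was 20.5 bp for the untreated-separated regions and 29 bp for the JQ1-separated ones. Summits were within 25 bp in 61.6% (55.1 to 67.7) and 44.1% (36.1 to 52.5) of regions, and within 50 bp in 87.5% (82.5 to 91.2) and 77.2% (69.5 to 83.5). These intervals cover counting error over regions and not the spread between cultures, so they support no difference between treatments. Summits of the regions held by all 4 lists were tighter, with medians of 11 bp without JQ1 and 13 bp with it. Over all recurrent regions the medians were close, at 13 bp for untreated and 14 bp for JQ1 recurrent ones. JQ1-separated regions were also wider, with a median of 267 bp against 238 bp. All JQ1 recurrent regions had a median width of 377 bp, against 339 bp for untreated recurrent ones. However, 68.65% of the former and 50.84% of the latter were held by all 4 lists, with a median width of 394 bp. The 2 recurrent sets therefore cannot show whether the width was particular to the members. Single peaks were not wider with JQ1, at medians of 214 and 228 bp in replicates 1 and 2, against 217 and 240 bp. More than 1 peak in a list was found in 18 of 136 JQ1-separated regions (13.2%, 8.54 to 19.95). Among untreated-separated regions it was 5 of 224 (2.23%, 0.957 to 5.12), and other regions were not counted for this. All of these values come from the peak calls that chose the regions.

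**Figure D4:**
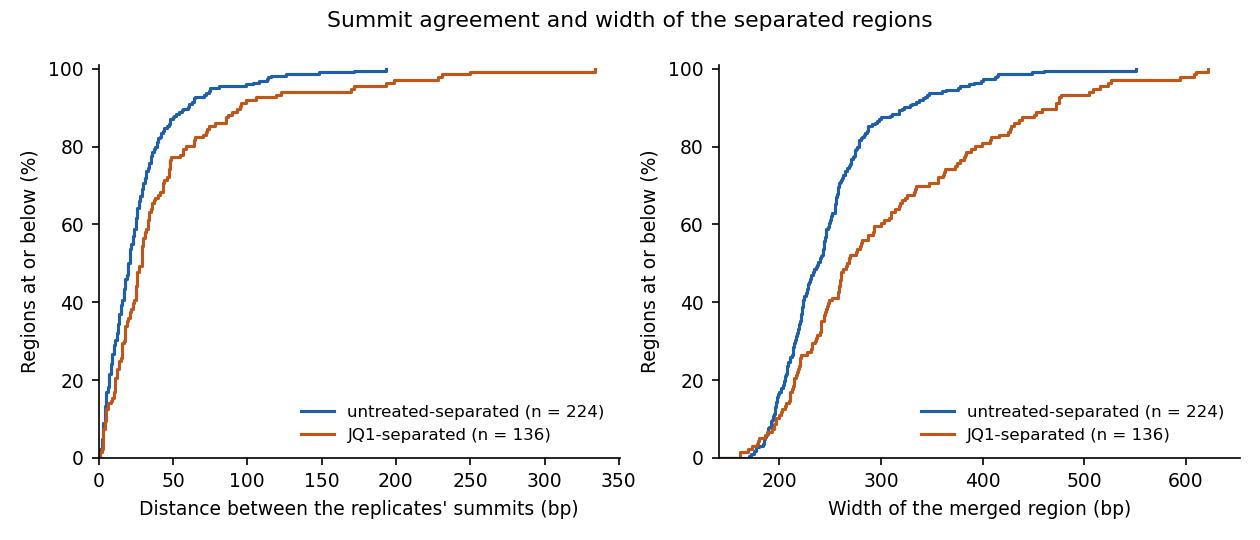
Cumulative share of the separated regions (y axis, percent) by the distance between the summits of the 2 replicates (left, bp) and by the width of the merged region (right, bp). The blue line is the 224 untreated-separated and the orange line the 136 JQ1-separated regions; the orange line lies to the right over most of both ranges, with medians of 29 against 20.5 bp and 267 against 238 bp.

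For the surroundings of the 2 directions, shares are given with intervals and without a test. An overlap of 2 intervals does not show that the shares were equal. Inside a protein-coding gene lay 50.9% (44.4 to 57.4) of the untreated-separated and 55.1% (46.8 to 63.3) of the JQ1-separated summits, against 49.9% of all regions. The span of a long non-coding RNA gene held 20.5% (15.8 to 26.3) and 13.2% (8.54 to 19.95), against 16.7%. Another region held by all 4 lists lay within 50 kb of 20.1% (15.4 to 25.8) and 23.5% (17.2 to 31.3), against 18.6%. Each of these pairs of intervals overlaps and includes the value of all regions. Neighbourhoods with 10 or more protein-coding genes within 500 kb held 25.4% (20.2 to 31.5) of the untreated-separated and 17.6% (12.2 to 24.9) of the JQ1-separated regions, against 20.4% of all. No other region lay within 50 kb of 20.5% and 14.7%, against 19.2%.

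Close to genes the numbers were small. Within 1 kb of a RefSeq start site lay 7 of 208 untreated-separated summits (3.37%, 1.64 to 6.78), and 0 of 130 JQ1-separated ones, against 2.15% of all regions. A count of 0 of 130 allows a share of up to 2.31% when 3 counts are taken as the limit, and up to 2.87% by the Wilson interval, so a lack of JQ1-separated regions at start sites was not detectable at this number. The 7 were RGS5-AS1, SPINT3, LOC107984627, LOC105370446, the Groucho corepressor TLE4, the kinase-like ADCK1 and CD226, an activating receptor of lymphocytes. Within 1 kb of either end of a protein-coding gene lay the untreated-separated regions of DBNDD2, SPINT3, ADCK1, H3-3B, which encodes histone H3.3, IRF5, an interferon regulatory factor, and PABPC1, the poly(A)-binding protein. The lone JQ1-separated region there was 172 bp from an end of FRMPD1, with 12 and 26 reads. In the untreated direction these 6 had 13 to 22 reads in replicate 1 and 24 to 51 in replicate 2, close to the medians of the group.

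**Figure D5:**
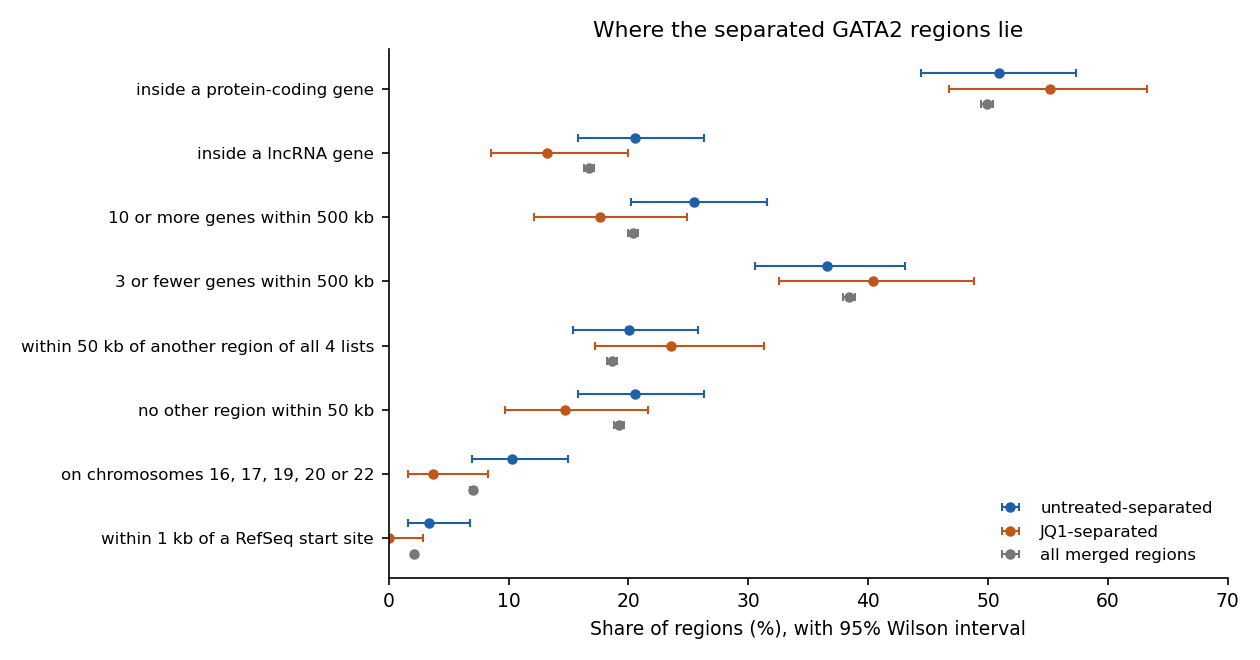
Share of regions (x axis, percent) in each kind of surrounding (rows) for the untreated-separated (blue) and JQ1-separated (orange) regions and for all merged regions (grey), with 95% Wilson intervals. The intervals of the 2 directions overlap in every row, which does not show that the shares were equal. At start sites 0 of 130 JQ1-separated regions were counted.

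Along the genome the 2 directions differed most in number on chromosome 14, named here as the extreme of all chromosomes. It held 17 untreated-separated (7.59%) and 3 JQ1-separated regions (2.21%). Its share was 3.1% of untreated recurrent and 2.99% of JQ1 recurrent regions, and it had 1181 of all 36122 regions. Chromosome 4 had 13 of each direction (5.80% and 9.56%), against 6.69% and 6.64% of the recurrent regions. Chromosome X had 3 and 6 (1.34% and 4.41%), against 2.0% and 2.06%. The chromosomes 16, 17, 19, 20 and 22 together held 23 untreated-separated regions (10.3%, 6.94 to 14.9) and 5 JQ1-separated ones (3.68%, 1.58 to 8.32). Their share of all regions was 7.05%. Chromosome 20 alone gave 10 of the 23 and 3 of the 5. This set of chromosomes was chosen after its values were seen, and the intervals overlap. Among recurrent regions it held 8.48% in untreated cells and 6.60% with JQ1.

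Of 20037 protein-coding genes, 1.24% (249) had an untreated-separated region and 0.719% (144) a JQ1-separated region within 50 kb of their span. Read against these shares, 15 lists of genes showed only a few members each. Of 30 androgen-regulated genes, ZBTB10 had an untreated-separated region, 26.3 kb away with 16 and 25 reads. Of 27 luminal prostate transcription factors, 0 had an untreated-separated region and 1 a JQ1-separated one, namely CREB3L1 (1.22 kb away, 9 and 17 reads). In these lists 22 of 30 and 15 of 27 genes had an untreated recurrent region in that range, against 4869 of 20037 of all genes. Only 3.52% of all untreated recurrent regions were separated, so the low counts say nothing particular about these lists.

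Among 25 genes of BET proteins and elongation factors, MLLT3 and the histone methyltransferase gene NSD3 (16 and 31 reads) held untreated-separated regions, and 0 had a JQ1-separated one. Of 22 genes often lowered by BET inhibitors, E2F1, a driver of entry into S phase, had an untreated-separated region 32.2 kb away. That region had 21 and 58 reads and lay inside PXMP4, 1.72 kb from the start site of PXMP4. Within 50 kb, 0 of the 22 genes had a JQ1-separated region. E2F1 was also the single gene of 30 cell cycle genes with a member. Of the 14 distinct genes often raised by BET inhibitors that were matched, 0 had a separated region in either direction. At the shares given above, 22 or 25 genes would hold less than 1 on average, so a count of 1 or 2 is a description of single sites.

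Of 32 genes for heparan sulfate, sulfo- and sialyltransferases, CHST8 had an untreated-separated region, and HS3ST5 and ST6GALNAC3 had JQ1-separated ones. Of 33 genes for glutamate receptors and synaptic adhesion, CSMD3 had an untreated-separated region (18.4 kb away, 17 and 24 reads). In the same list 4 genes had JQ1-separated ones, among them CTNND2 and DLG2 (12 and 13 reads). Of 33 cadherins, claudins and focal adhesion genes, CLDN1 and CLDN16 shared the same untreated-separated region, and 0 had a JQ1-separated one. Of 22 EPH receptors and ephrins, EPHA5 alone had a JQ1-separated region within 50 kb. By nearest gene, the JQ1-separated regions at ranks 46 and 136 belonged to EPHA4 and EFNA5. These lists were written with the leading regions already known, so their counts are no independent evidence of a theme.

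Genes at common fragile sites, which are mostly very long, had members in both directions. Of 21, 4 had untreated-separated regions, namely FHIT, MACROD2, LRP1B and IMMP2L, and 4 had JQ1-separated ones, among them DLG2, IMMP2L and NBEA. Over all genes the shares were 1.24% and 0.719%. All 21 had at least 1 merged region within 50 kb, against 12546 of 20037 of all genes, and 18 had an untreated recurrent one, against 4869 of 20037. The counts were not adjusted for gene length. IMMP2L, with a span of 900 kb, held an untreated-separated region with 12 and 48 reads and a JQ1-separated region with 22 and 45 reads.

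Lists of marker genes held 1 gene with a separated region. At 1.24% and 0.719% of all genes, lists of this size would hold less than 1 on average in either direction, so counts of 0 or 1 say nothing particular about the markers. Of 18 basal epithelial markers, ITGB4, a hemidesmosome integrin, had an untreated-separated region 19.01 kb away (18 and 45 reads), and this is the region at the end of H3-3B. Of 18 luminal epithelial markers, 21 neuroendocrine markers and 22 genes linked to GATA2 in blood, 0 had a region of either direction. Among microRNA genes, MIR587, MIR573, MIR4738 and MIR135A1 lay 1.41, 1.61, 7.69 and 8.78 kb from untreated-separated summits, and MIR204, within TRPM3, lay 2.96 kb from a JQ1-separated one. Binding near a gene was measured here, and RNA levels were not.

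Some regions on the 2 sides of the rule's threshold were closely similar. Just outside it, the region nearest to CTTNBP2 had 19 and 35 reads in the untreated lists and was also held by JQ1 replicate 2, with 17 reads and a −log10 q of 1.34. The region near ERP27, with 20 and 44 untreated reads, was held by JQ1 replicate 1 alone, with 11 reads and a −log10 q of 1.36. On the other side, the region in ACTL8 had 17 and 14 reads in the JQ1 lists and was held by untreated replicate 2 with 11 reads and a −log10 q of 1.38. Just inside the rule, the last JQ1-separated regions by rank were those nearest to PRKAR2B (11 and 36 reads) and EFNA5 (8 and 25). Their −log10 q was 1.36 and 1.31 in JQ1 replicate 1. The last but 1 of the untreated-separated regions, nearest to CFAP300, had 25 reads in each list and a −log10 q of 1.64 in replicate 2. These examples were picked as the weakest in the third list or as the last by rank. Their closeness to the q-value limit of 0.05 thus followed from the choice. The 3 outside were taken from 2890, 15 and 1329 regions held by that 1 further list. Leading members were not near the limit, as the MLLT3 region had a −log10 q of 24.7 and 37.8.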

How the data were processed

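GATA2 ChIP-seq of VCaP cells was analysed from 4 peak lists, 1 for each precipitate. The submitters' processing notes name Bowtie2, Picard, MACS2 and the build hg38, without versions. The deposited fields are the caller's score, the fold enrichment as a linear ratio, the −log10 p-value and the −log10 q-value, each for 1 summit in 1 list. These values are the authors' own, and they ordered or filtered peaks only inside the list they came from. Mitochondrial and unplaced rows, 10 of JQ1 replicate 1 and 8 of untreated replicate 2, were left out. Total library depth is unknown, and the depth behind a peak is its reads.

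Reads and local background at each summit were solved from the deposited fold (reads plus 1 over background plus 1) and p-value (a Poisson tail), with a tolerance of 0.002 in −log10 p. In untreated replicate 2 the values gave whole reads after a scaling by 0.6863. No label states this scaling, so it is inferred. It was undone for reads, while background stayed on the caller's scale. This step was tested on simulated data. Reads needed for a call were those that reach the weakest p-value of the list at the member's background, scaled by the lowest background of each list.

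Peaks overlapping by 1 bp or more were merged. Within each direction, regions were ordered by the poorer of their 2 rank percentiles by q-value. Named are the first 15 of each direction, regions within 1 kb of a gene end, genes with 2 members, pairs of opposite direction within 100 kb, the 2 last of each direction, and at most 4 genes per list. Other regions were named after their values were seen. Some regions, pairs and list genes that this rule takes are not reported here. The members and the gene lists were chosen with earlier results of these data known. Genes came from RefSeq GRCh38.p14 (20037 protein-coding genes, spans without strand or exons), in which all 370 list entries were matched to a gene. No test was run, since regions are not replicates of a treatment. Alternatives were other overlap rules, a stricter q-value, lists of equal length, leaving out a replicate, and other gene and neighbour distances. Python 3.11.15, pandas 2.3.3, SciPy 1.17.1 and matplotlib 3.10.9 were used.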

Additional observations from a re-analysis of the deposited data

How the results depend on the processing

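The number of separated regions was within 1.5 times its value under a 50% reciprocal overlap (242 untreated-separated and 141 JQ1-separated regions, of which 211 and 109 were members), under summits within 100 bp (235 and 162, of which 216 and 130 were members), and with peaks up to 500 bp apart chained (215 and 135, of which 213 and 130 were members). Lists of equal length gave 351 and 327. Peaks with a q-value no higher than 1e-05 gave 198 regions in the untreated direction and 88 in the JQ1 direction. With 1 replicate left out, so that 1 list stood for each treatment, the counts ran from 3475 to 5046 in the untreated and from 1573 to 9596 in the JQ1 direction, the higher ones without replicate 1. The share inside a protein-coding gene ran from 51.4% to 61.0% in the JQ1 direction, and in the untreated direction it left its interval only when summits within 10 kb of a gene were counted, at 58.0%. The share within 50 kb of a region held by all 4 lists was 11.7% and 12.5% with lists of equal length, and 63.0% and 64.2% without replicate 1. The causes were not tested. The share of members with a GATA motif could not be run, because no genome was used here. No paired analysis was possible because no result here comes from a test. Values within a replicate number are the counts with the other replicate left out. Absence from a list can reflect few reads, since a call needed 7 to 11 reads at the least.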
